A study of Mus musculus with 20 samples.

Results

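Ssbp3, Ralgapa1, Pacs1, Hmces, Trp53inp2, Gyg, Cdk9, Eps8 and Mpv17l2 are 9 mouse genes whose RNA was 2- to 4-fold more abundant in immunoprecipitates made with iron regulatory protein 1 (IRP1) than in control immunoprecipitates, in the mean of 5 tissues, and that are not known to carry an iron-responsive element. The genes were chosen by their IRP1-minus-control values in that mean, so those values are a description here and no test is given for them. They are 9 of 18193 genes with a probe set of their own. All 22 probe sets that the array annotation assigns to them are described, of 45037 tested, and each probe set is kept separate. There are 8 probe sets for Ralgapa1, 3 for Eps8, 2 each for Ssbp3, Trp53inp2, Gyg and Cdk9, and 1 each for Pacs1, Hmces and Mpv17l2.

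Total RNA of C57BL6/J mice of both sexes was pooled by tissue, 50 µg of it was mixed with His-tagged IRP1 made in E. coli, and the protein was recovered with a rabbit anti-IRP1 antibody. Control reactions had the antibody and the RNA but no recombinant IRP1. Duodenum, liver and spleen came from mice on an iron-poor diet (below 10 mg per kg) for 21 days from weaning, and bone marrow and brain from iron-normal mice of 8 to 10 weeks, so diet and age cannot be told apart from tissue. Each of the 5 tissues has 2 IRP1 arrays and 2 control arrays, 20 Affymetrix arrays in 10 groups. Pools held 6 mice for bone marrow and brain and 4 for 1 duodenum sample, and the series text gives 4 to 6 for the tissues in general. Nothing says that the 2 arrays of a group came from separate pools, so the spread behind the p-values is that between reactions and arrays, which may be technical.

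IRP1 is a cytosolic protein that holds an iron-sulfur cluster when iron is plentiful and binds RNA when the cluster is absent. It binds the iron-responsive element, a short hairpin with a bulged C and a loop of the letters CAGUGN, where N is any base. In the 5′ untranslated region, as in ferritin mRNA, binding blocks translation, and in the 3′ untranslated region, as in transferrin receptor mRNA, it protects the mRNA from decay. The experiment measures which RNAs the added protein holds in a tube of naked RNA, not binding inside cells.

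Values are log2 signals, on a scale where 1 unit is a 2-fold difference, and array medians lay between 5.50 and 5.62. Arrays of 1 tissue correlated at 0.978 to 0.994 over all probe sets, and arrays of different tissues at 0.745 to 0.951. Marker genes of enterocytes averaged 13.48 in duodenum, of hepatocytes 13.02 in liver, of B and T cells 9.62 in spleen, of neutrophil precursors 13.11 in bone marrow and of neurons and glia 8.81 in brain, each highest in the labelled tissue. Markers of pancreatic acinar cells (4 of 5 listed genes measured) averaged 13.14 in duodenum, 8.84 in spleen and between 5.29 and 6.11 elsewhere. Markers of erythroid cells (4 of 5 listed genes measured) averaged 10.95 in spleen, 12.46 in bone marrow and between 4.66 and 5.33 elsewhere. The part of acinar and erythroid cells in the levels below was not tested. Spike-in hybridization controls lay below the median array by 0.95 and 1.25 log2 units on the second IRP1 and second control array of spleen and by 0.84 on the first control array of bone marrow, against -0.11 to 0.35 on the other arrays.

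Of the 22 probe sets, 13 were higher with IRP1 by 2- to 4-fold in the mean of tissues, at least 1 for each of the 9 genes, 9 stood under 2-fold and 0 over 4-fold. Over all probe sets 73, or 0.162%, lay in that range, and these hold 48 genes. The median difference was 1.22 log2 units over the 22 probe sets and -0.01 over all probe sets. The probe set with the largest mean difference, called the leading probe set of its gene, stood at 3.42-fold for Ssbp3, 3.40-fold for Ralgapa1, 3.11-fold for Pacs1, 2.95-fold for Hmces, 2.77-fold for Trp53inp2, 2.66-fold for Gyg, 2.40-fold for Cdk9, 2.33-fold for Mpv17l2 and 2.06-fold for Eps8. The values just inside the 2-fold limit were Eps8 1422823_at at 2.06-fold and Mpv17l2 at 2.33-fold, and those just outside were Trp53inp2 1444396_at at 1.89-fold and Eps8 1422824_s_at at 1.83-fold. Both IRP1 arrays stood above both controls in all 5 tissues for 9 of 9 leading probe sets and 17 of 22 in all, against 0.409% of all probe sets, a count that follows in part from the choice.

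**Figure D1:**
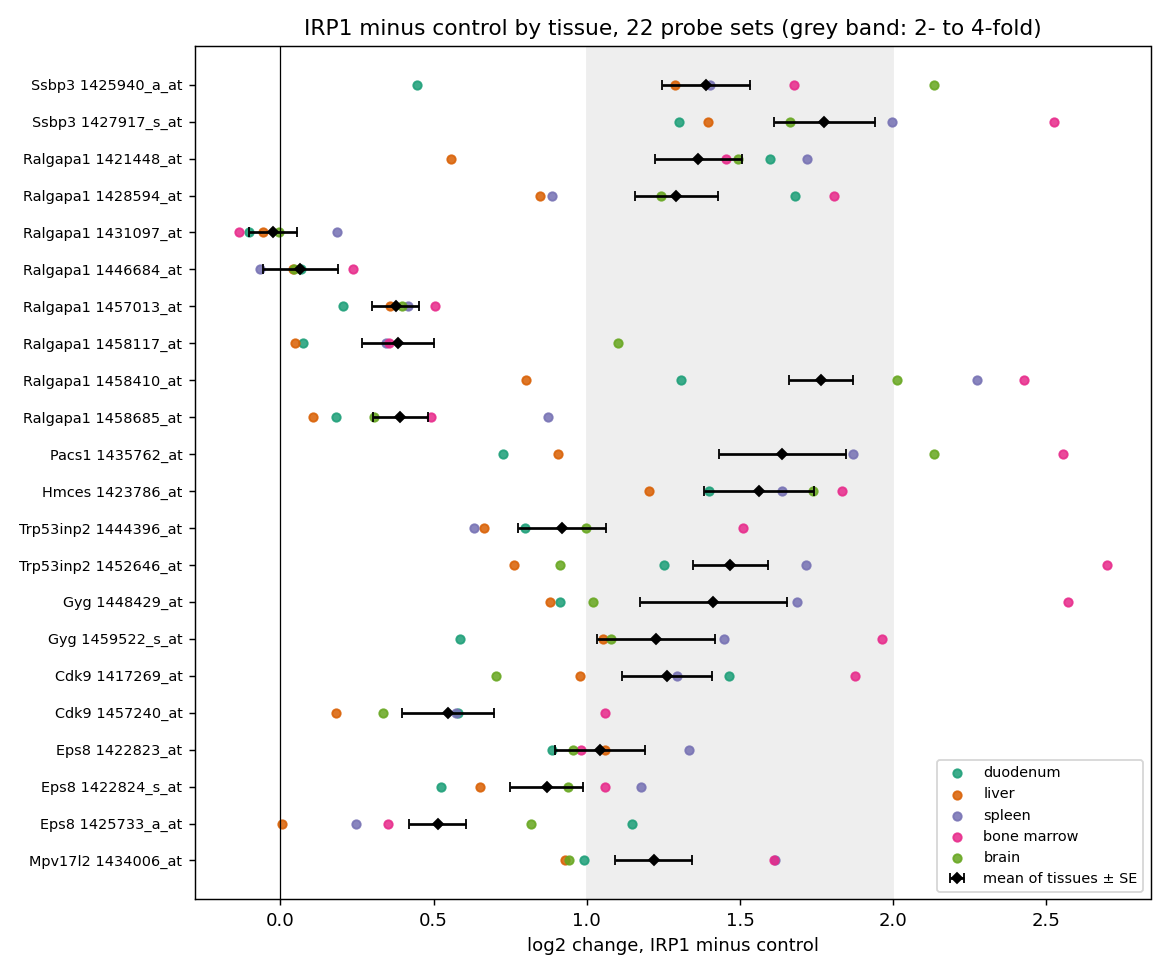
Log2 difference between IRP1 and control (x axis, log2 units) for each of the 22 probe sets, with 1 coloured point per tissue and a diamond with its standard error for the mean of 5 tissues. The grey band spans 2- to 4-fold, which holds the means of 13 probe sets, and bone marrow lies farthest right for 7 of the 9 leading probe sets.

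**Figure D2:**
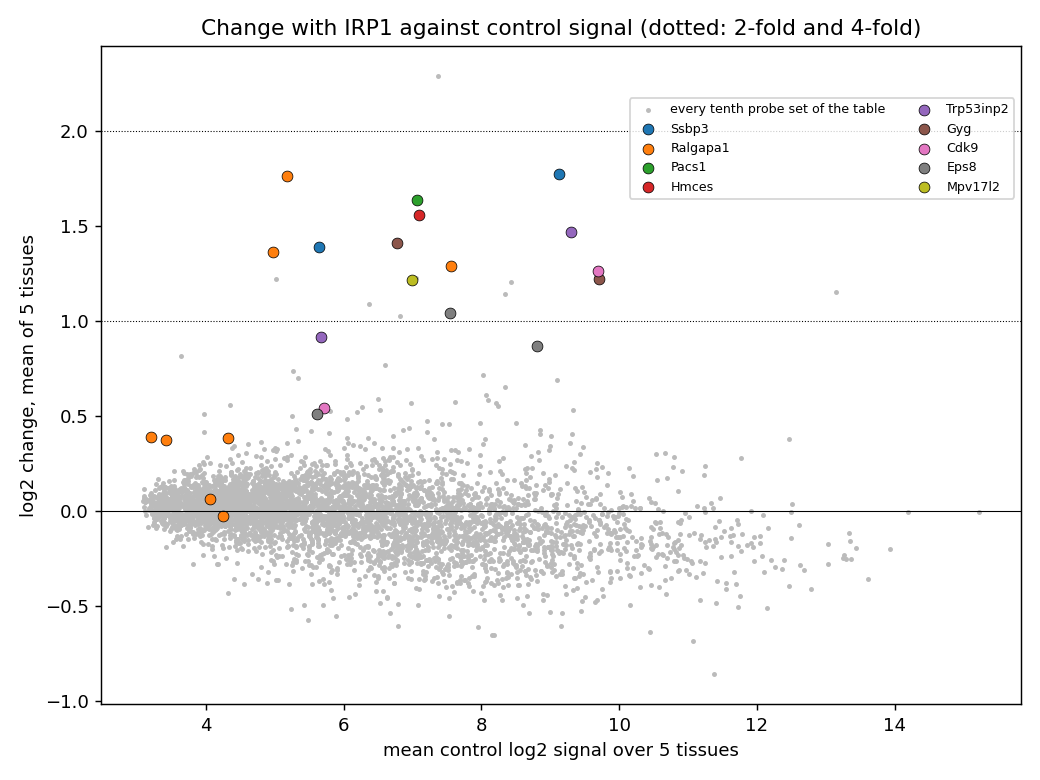
Mean log2 difference between IRP1 and control over 5 tissues (y axis) against mean control log2 signal (x axis), with the 22 probe sets in colour and a regular sample of the array's other probe sets in grey. The 13 probe sets between the dotted lines have control signals from 4.98 to 9.71, and the Ralgapa1 probe sets under 0.5 log2 units have control signals from 3.20 to 4.32.

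The letters of the hairpin loop were looked for in RefSeq sequence (GRCm38.p6) around the annotated gene starts, 250 bases before and 50 bases after. The pattern was C, any 5 bases, CAGTG and any 1 base, on the gene's own strand. Windows were matched for 8 of the 9 genes, 11 windows in all. Pacs1 alone had the pattern in the 50 bases after a start, where 1.55% of all 32851 windows have it. Trp53inp2, Gyg and Cdk9 had it before the start, outside the annotated gene. Of all windows, 10.4% hold it anywhere. How many of the 11 windows hold it anywhere was not counted. The matches are listed once per site, so they cannot be set against that share of windows. The 4 matches are shown because they are the only ones in these windows, with the loop letters in capitals.
Pacs1: cccaccCAGTGtctggg
Trp53inp2: cgctttCAGTGtgaggt
Gyg: cgcccgCAGTGcgcacc
Cdk9: cgggggCAGTGgcggcg
They lie at chr19:5273101-5273117 (minus strand), chr2:155381617-155381633 (plus strand), chr3:20155144-20155160 (minus strand) and chr2:32712896-32712912 (minus strand), in that order. In a hairpin the 5 bases on each side of the loop must pair. By a count added after the matches were seen, with G-T pairs allowed, 2 of 5 positions can pair in Pacs1, 5 of 5 in Trp53inp2, 1 of 5 in Gyg and 2 of 5 in Cdk9. A match with 5 of 5, G-T pairs allowed, occurred in 26 windows, 0.0791% of all. The one in Trp53inp2 has more G-T pairs than G-C and A-T pairs together, and begins 194 bases before the annotated start. By the annotation, the matches in Trp53inp2, Gyg and Cdk9 lie in DNA before the gene and not in its RNA. Beyond the 50 bases after each start these mRNAs were not searched, and a match in letters is a description of sequence.

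Ssbp3, Cdk9 and Hmces encode nuclear proteins. Ssbp3 is a partner of LDB1, the adaptor of LIM-homeodomain transcription factors. The control arrays of Ssbp3 1427917_s_at read 8.40 and 8.58 in duodenum, 8.78 and 8.62 in liver, 8.92 and 8.83 in spleen, 9.39 and 9.80 in bone marrow and 10.24 and 9.78 in brain. With IRP1 they read 10.06 and 9.53 in duodenum, 9.76 and 10.44 in liver, 10.18 and 11.55 in spleen, 11.97 and 12.26 in bone marrow and 11.25 and 12.10 in brain. No tissue's reactions overlapped, and the bone marrow and brain means were the highest with IRP1. The log2 difference was 1.30 in duodenum, 1.40 in liver, 1.99 in spleen, 2.52 in bone marrow and 1.66 in brain (SE 0.37 in each), and 1.78 (SE 0.16) in the mean. The second probe set, 1425940_a_at, had a lower control signal, 5.65 in the mean of tissues, and differed by 0.45 in duodenum, 1.29 in liver, 1.40 in spleen, 1.68 in bone marrow and 2.13 in brain. It put brain highest and duodenum lowest, where the leading probe set put bone marrow highest. The suffix s_at marks probes that can match transcripts of more than 1 gene, and a_at probes shared by several transcripts of 1 gene.

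Cdk9 is the kinase of P-TEFb, which releases paused RNA polymerase II into elongation. Control arrays of 1417269_at read 9.14 and 9.04 in duodenum, 8.97 and 8.82 in liver, 10.40 and 10.41 in spleen, 10.29 and 10.54 in bone marrow and 9.73 and 9.65 in brain. With IRP1 the arrays read 10.85 and 10.26 in duodenum, 9.69 and 10.05 in liver, 10.96 and 12.44 in spleen, 12.22 and 12.36 in bone marrow and 10.61 and 10.18 in brain. The lowest IRP1 array of each tissue stood above its highest control, by the least in brain. Differences were 1.47 in duodenum, 0.98 in liver, 1.29 in spleen, 1.87 in bone marrow and 0.70 in brain (SE 0.33 each), 1.26 (SE 0.15) in the mean. The weaker probe set 1457240_at, with a mean control signal of 5.72, differed by 0.55 in the mean, a 1.46-fold difference.

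Hmces shields abasic sites in single-stranded DNA by binding to them covalently. Controls for 1423786_at read 6.68 and 6.50 in duodenum, 6.84 and 6.72 in liver, 7.64 and 7.70 in spleen, 7.26 and 7.27 in bone marrow and 7.07 and 7.22 in brain. After IRP1 immunoprecipitation they read 8.05 and 7.93 in duodenum, 7.80 and 8.16 in liver, 8.52 and 10.09 in spleen, 8.88 and 9.32 in bone marrow and 8.20 and 9.57 in brain. The reactions were apart in every tissue, and the second IRP1 arrays of spleen and brain stood over 1 log2 unit above the first. Differences were 1.40 in duodenum, 1.20 in liver, 1.64 in spleen, 1.83 in bone marrow and 1.74 in brain (SE 0.40 each), 1.56 (SE 0.18) in the mean. This is the narrowest range between tissues among the 4 leading probe sets with mean differences above 1.5.

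**Figure D3:**
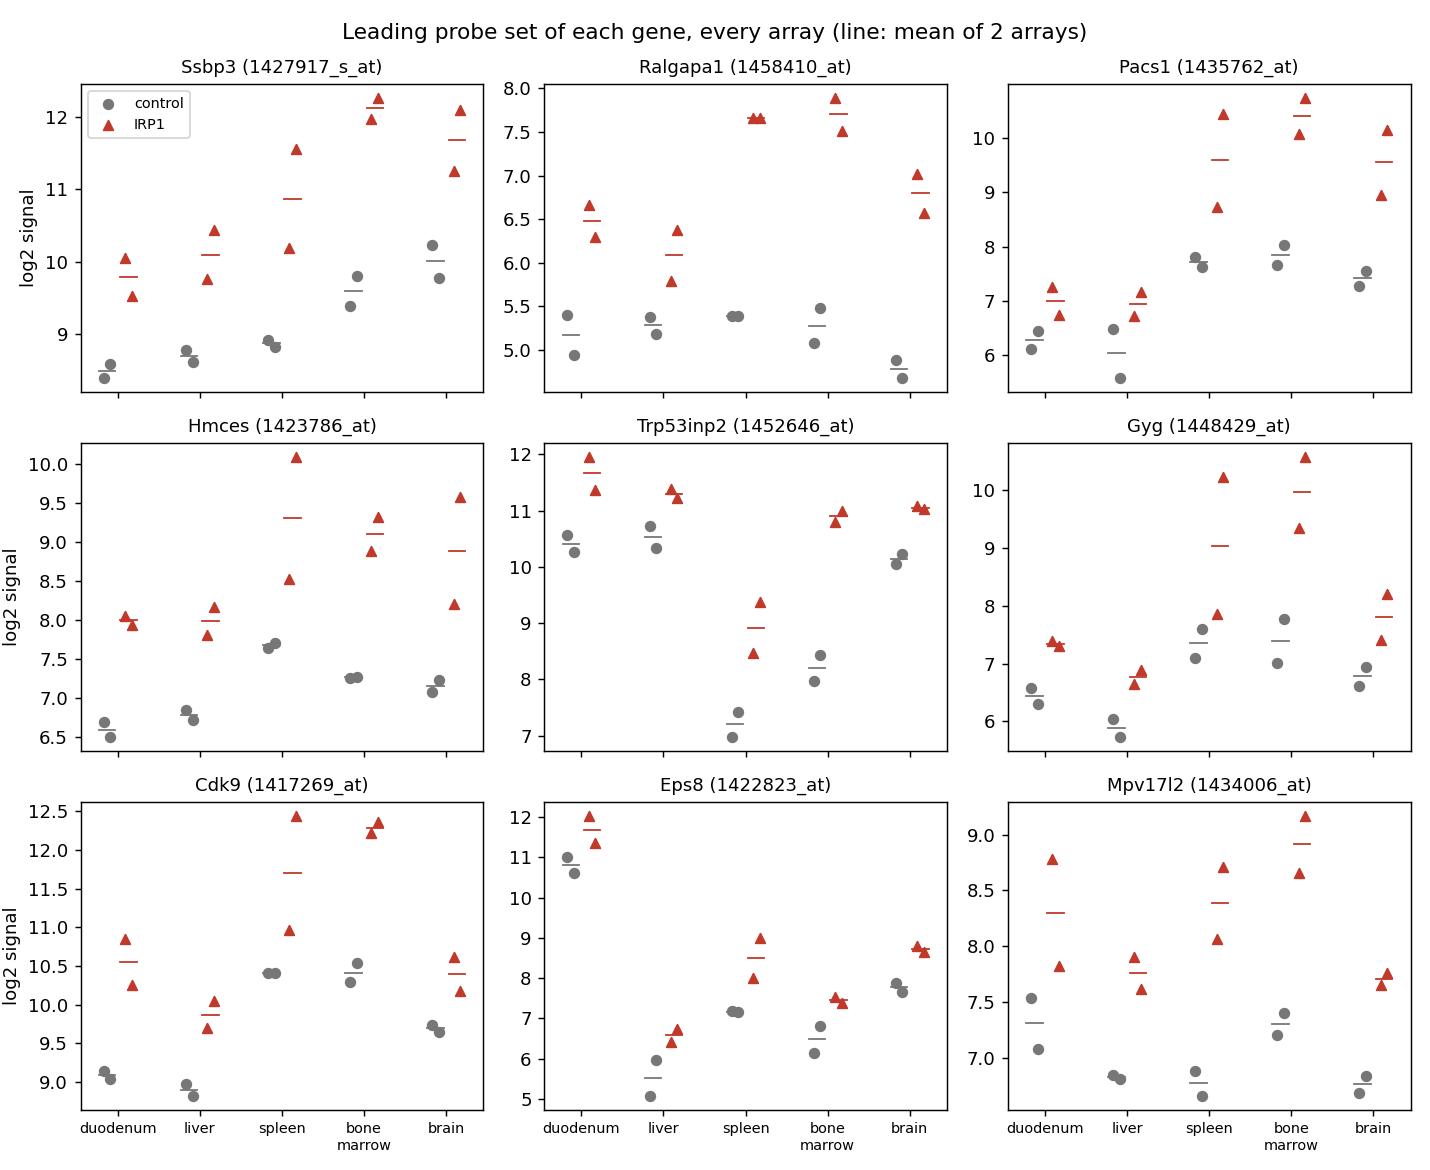
Log2 signal (y axis, a separate scale in each panel) of the leading probe set of each gene on all 20 arrays, by tissue, with controls as grey circles, IRP1 as red triangles and lines at the mean of 2 arrays. The IRP1 arrays lie above the controls of the same tissue in all 9 panels, and the 2 IRP1 arrays of spleen lie far apart in most, from 7.86 to 10.22 for Gyg.

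Trp53inp2, Gyg and Mpv17l2 act in autophagy, glycogen synthesis and mitochondria. Trp53inp2 is a nuclear and autophagosomal protein that promotes autophagosome formation. Without added IRP1, 1452646_at read 10.56 and 10.26 in duodenum, 10.73 and 10.34 in liver, 6.98 and 7.42 in spleen, 7.98 and 8.42 in bone marrow and 10.05 and 10.22 in brain. With the protein added the signals were 11.96 and 11.37 in duodenum, 11.37 and 11.22 in liver, 8.47 and 9.37 in spleen, 10.80 and 11.00 in bone marrow and 11.08 and 11.02 in brain. Controls of spleen and bone marrow were the lowest, while IRP1 arrays of bone marrow came close to those of brain. Differences were 1.25 in duodenum, 0.76 in liver, 1.72 in spleen, 2.70 in bone marrow and 0.91 in brain (SE 0.27 each), 1.47 (SE 0.12) in the mean, and the bone marrow value is 6.49-fold. The second probe set 1444396_at also stood highest in bone marrow, at 0.80 in duodenum, 0.66 in liver, 0.63 in spleen, 1.51 in bone marrow and 1.00 in brain, with a mean of 0.92, which is 1.89-fold.

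Gyg is glycogenin, the self-glucosylating primer on which glycogen chains begin. In the control arrays, 1448429_at read 6.57 and 6.30 in duodenum, 6.04 and 5.74 in liver, 7.10 and 7.60 in spleen, 7.01 and 7.77 in bone marrow and 6.62 and 6.94 in brain. IRP1 arrays gave 7.40 and 7.30 in duodenum, 6.65 and 6.88 in liver, 7.86 and 10.22 in spleen, 9.35 and 10.57 in bone marrow and 7.40 and 8.20 in brain. The spleen and bone marrow pairs with IRP1 were spread more widely than those of duodenum and liver. Differences were 0.91 in duodenum, 0.88 in liver, 1.69 in spleen, 2.57 in bone marrow and 1.02 in brain (SE 0.54 each), 1.41 (SE 0.24) in the mean. A brighter probe set, 1459522_s_at, with a mean control signal of 9.71, stood at 0.59 in duodenum, 1.05 in liver, 1.45 in spleen, 1.96 in bone marrow and 1.08 in brain, 2.34-fold in the mean. Both put bone marrow highest and spleen next.

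Mpv17l2 is a mitochondrial inner membrane protein needed for assembly of the mitochondrial ribosome. Control arrays of 1434006_at read 7.54 and 7.08 in duodenum, 6.85 and 6.81 in liver, 6.88 and 6.66 in spleen, 7.21 and 7.40 in bone marrow and 6.69 and 6.84 in brain. In the IRP1 reactions they were 8.78 and 7.82 in duodenum, 7.90 and 7.62 in liver, 8.07 and 8.71 in spleen, 8.66 and 9.17 in bone marrow and 7.66 and 7.76 in brain. The 10 control arrays lay between 6.66 and 7.54, and the groups did not overlap in any tissue. Differences were 0.99 in duodenum, 0.93 in liver, 1.61 in spleen, 1.61 in bone marrow and 0.94 in brain (SE 0.28 each), 1.22 (SE 0.12) in the mean.

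Ralgapa1, Pacs1 and Eps8 act in small-GTPase signalling, membrane sorting and the actin cytoskeleton. Ralgapa1 is the catalytic subunit of a complex that turns off the Ral GTPases. Controls for 1458410_at read 5.40 and 4.94 in duodenum, 5.38 and 5.19 in liver, 5.39 and 5.39 in spleen, 5.08 and 5.48 in bone marrow and 4.89 and 4.68 in brain. The IRP1 arrays read 6.66 and 6.30 in duodenum, 5.80 and 6.37 in liver, 7.66 and 7.67 in spleen, 7.89 and 7.52 in bone marrow and 7.02 and 6.57 in brain. All controls were dim, below the array median, and the spleen and bone marrow IRP1 arrays were brightest. Differences were 1.31 in duodenum, 0.80 in liver, 2.27 in spleen, 2.43 in bone marrow and 2.01 in brain (SE 0.23 each), 1.76 (SE 0.10) in the mean. Probe sets 1421448_at and 1428594_at stood at 2.57-fold and 2.45-fold in the mean. The first differed by 1.60 in duodenum, 0.56 in liver, 1.72 in spleen, 1.45 in bone marrow and 1.49 in brain. The second, the brightest of the 8 with a mean control signal of 7.56, differed by 1.68 in duodenum, 0.85 in liver, 0.89 in spleen, 1.81 in bone marrow and 1.24 in brain. Liver was lowest for all 3 of these probe sets. The other 5 Ralgapa1 probe sets had mean control signals of 3.20 to 4.32 and mean differences of -0.02, 0.06, 0.38, 0.38 and 0.39. They lie near the bottom of the scale, where the lowest value of an array is 2.63 to 2.89. Differences there can be compressed, which was not tested. Of these, 1458117_at stood at 1.10 in brain, where its IRP1 arrays read 5.84 and 4.59 and its controls 4.17 and 4.05.

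Pacs1 is a sorting adaptor that returns furin and other cargo to the trans-Golgi network. Without added IRP1, 1435762_at read 6.11 and 6.44 in duodenum, 6.49 and 5.59 in liver, 7.81 and 7.62 in spleen, 7.67 and 8.03 in bone marrow and 7.28 and 7.55 in brain. With IRP1 the arrays read 7.26 and 6.75 in duodenum, 6.73 and 7.17 in liver, 8.73 and 10.43 in spleen, 10.06 and 10.74 in bone marrow and 8.95 and 10.15 in brain. Duodenum and liver were lowest in both reactions, and the liver groups were separated by less than the spread of the liver controls. Differences were 0.73 in duodenum, 0.91 in liver, 1.87 in spleen, 2.55 in bone marrow and 2.13 in brain (SE 0.46 each), 1.64 (SE 0.21) in the mean.

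Eps8 is a substrate of the EGF receptor that caps and bundles actin filaments and is a component of intestinal microvilli. In the control arrays, 1422823_at read 11.00 and 10.61 in duodenum, 5.08 and 5.96 in liver, 7.18 and 7.16 in spleen, 6.15 and 6.80 in bone marrow and 7.89 and 7.66 in brain. After IRP1 immunoprecipitation they read 12.03 and 11.35 in duodenum, 6.41 and 6.75 in liver, 8.01 and 8.99 in spleen, 7.52 and 7.39 in bone marrow and 8.81 and 8.65 in brain. All 4 duodenum arrays stood more than 1 log2 unit above every other array, and IRP1 stood above the controls in each tissue. Differences were 0.89 in duodenum, 1.06 in liver, 1.33 in spleen, 0.98 in bone marrow and 0.95 in brain (SE 0.33 each), 1.04 (SE 0.15) in the mean, the least variable between tissues among the 9 leading probe sets. The brightest Eps8 probe set, 1422824_s_at, read 12.21 and 12.00 in duodenum controls and 12.80 and 12.45 with IRP1. Its differences were 0.52 in duodenum, 0.65 in liver, 1.18 in spleen, 1.06 in bone marrow and 0.94 in brain, 1.83-fold in the mean. Probe set 1425733_a_at had controls of 7.63 and 7.11 in duodenum and of 4.83 to 5.44 elsewhere. It differed by 1.15 in duodenum, 0.00 in liver, 0.25 in spleen, 0.35 in bone marrow and 0.82 in brain. Its signals outside duodenum were low, and whether that compressed the differences was not tested.

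Whether the difference made by IRP1 varied between tissues does not depend on the mean that chose the genes, and was tested with limma over all 45037 probe sets, although the error estimate is shared with the choice. By the F-test 0 of the 22 probe sets passed an adjusted p of 0.05, against 0.0111% of all probe sets. At an unadjusted p under 0.05 there were 4 of 22, against 4.83% of all. These were Ralgapa1 1458410_at (adjusted p = 0.573 by limma), Trp53inp2 1452646_at (adjusted p = 0.640 by limma), Eps8 1425733_a_at and Ssbp3 1425940_a_at. The Ralgapa1 adjusted p was 0.0201 by limma when all values under 6 were set to 6, and its mean difference was then 0.97. All control arrays of that probe set lay under 6, so the floor made them equal and removed their spread from the test. With the floor the F-test called 221 of 27677 probe sets, against 5 of 45037 without it. On the values as deposited no probe set of these genes passed the test of tissue variation.

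The tissue with the largest difference was shared by most of the leading probe sets, and the order of the others varied. Bone marrow had the largest difference for 7 of 9 leading probe sets, and Eps8 and Mpv17l2 had it in spleen. The share of all probe sets with their largest difference in bone marrow was not counted. The 7 of 9 therefore cannot be called particular to these genes. The smallest was in liver for 5, in duodenum for 3 and in brain for 1. The median of the 9 leading differences was 2.43 in bone marrow, 1.69 in spleen, 1.25 in duodenum, 1.02 in brain and 0.93 in liver, against 0.05, -0.01, -0.02, -0.02 and -0.02 over all probe sets. Bone marrow against the mean of the other 4 tissues gave 0 calls of 22 by limma, with 5 at an unadjusted p under 0.05, against 0.00222% called and 10.0% unadjusted of all probe sets. The difference was 1.54 (SE 0.30, adjusted p = 0.494 by limma) for Trp53inp2 1452646_at, 1.45 (SE 0.60) for Gyg 1448429_at and 0.83 (SE 0.26) for Ralgapa1 1458410_at. Liver against the others also gave 0 calls of 22, with 4 at an unadjusted p under 0.05, against 0.00666% called and 6.27% unadjusted of all probe sets, and Ralgapa1 1458410_at stood at -1.20 (SE 0.26, adjusted p = 0.270 by limma). Duodenum, spleen and brain gave 0 calls by limma, with 4, 2 and 3 at an unadjusted p under 0.05, against 0%, 0% and 0.0222% of all probe sets called and 3.57%, 3.63% and 3.02% unadjusted.

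The 3 iron-poor tissues were set against the 2 iron-normal tissues, a contrast that also differs in tissue and age. Limma called 0 of the 22 probe sets and 0% of all, with 5 of 22 and 4.50% of all at an unadjusted p under 0.05. The difference of differences was -1.18 (95% interval -2.07 to -0.28) for Pacs1, -0.86 (-1.48 to -0.24) for Ssbp3 1425940_a_at and -0.76 (-1.21 to -0.31) for Ralgapa1 1458410_at, all with an adjusted p of 0.944 by limma. The other 2 were Trp53inp2 1452646_at at -0.56 and Ralgapa1 1458117_at at -0.57. The intervals shown are wide and not adjusted for the number of probe sets tested. They belong to the probe sets with the smallest unadjusted p-values of the 22. A p above the threshold does not show that iron-poor and iron-normal tissues were alike.

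The spleen arrays of these genes differed between the 2 immunoprecipitations. With IRP1, 20 of the 22 probe sets were higher on the second spleen array, by a median of 0.94 log2 units, against a median of 0.01 over all probe sets. In the spleen controls 14 of 22 were higher, by a median of 0.05. Gyg 1448429_at read 7.86 and 10.22, Cdk9 1417269_at 10.96 and 12.44, and Ralgapa1 1458410_at 7.66 and 7.67. In duodenum the second IRP1 array was higher for only 4 of 22, with a median of -0.34. Transferrin receptor, a known target, read 13.60 and 14.36 on the spleen IRP1 arrays (Tfrc 1452661_at). Its other probe sets were closer, at 9.85 and 10.14 (1422966_a_at) and 6.38 and 6.57 (1422967_a_at). Ferroportin, also a known target, read 11.89 and 12.92 (Slc40a1 1448566_at) and 12.75 and 13.59 (1417061_at). The second spleen arrays are the ones with low hybridization controls, and the part of that in this difference was not tested.

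Without the 3 arrays with low hybridization controls, each of the 9 leading probe sets still stood higher with IRP1 in the mean, between 0.88 for Eps8 and 1.72 for Ralgapa1. That they stood higher follows in part from the choice, and the Eps8 value lies under 2-fold. In spleen, where 1 array of each reaction then remains, the difference went from 1.87 to 0.93 for Pacs1, from 1.69 to 0.76 for Gyg, from 1.29 to 0.56 for Cdk9, from 1.64 to 0.88 for Hmces, from 1.99 to 1.27 for Ssbp3 and from 1.33 to 0.83 for Eps8. Ralgapa1 stayed at 2.28, after 2.27 with all arrays. Bone marrow differences moved by at most 0.38, for Gyg from 2.57 to 2.19, which for Ralgapa1 (2.43 to 2.23) was more than in spleen and for Trp53inp2 (2.70 to 2.47) about as much. Bone marrow then had the largest difference for 7 of the 9, with Ralgapa1 largest in spleen and Eps8 in liver.

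**Figure D4:**
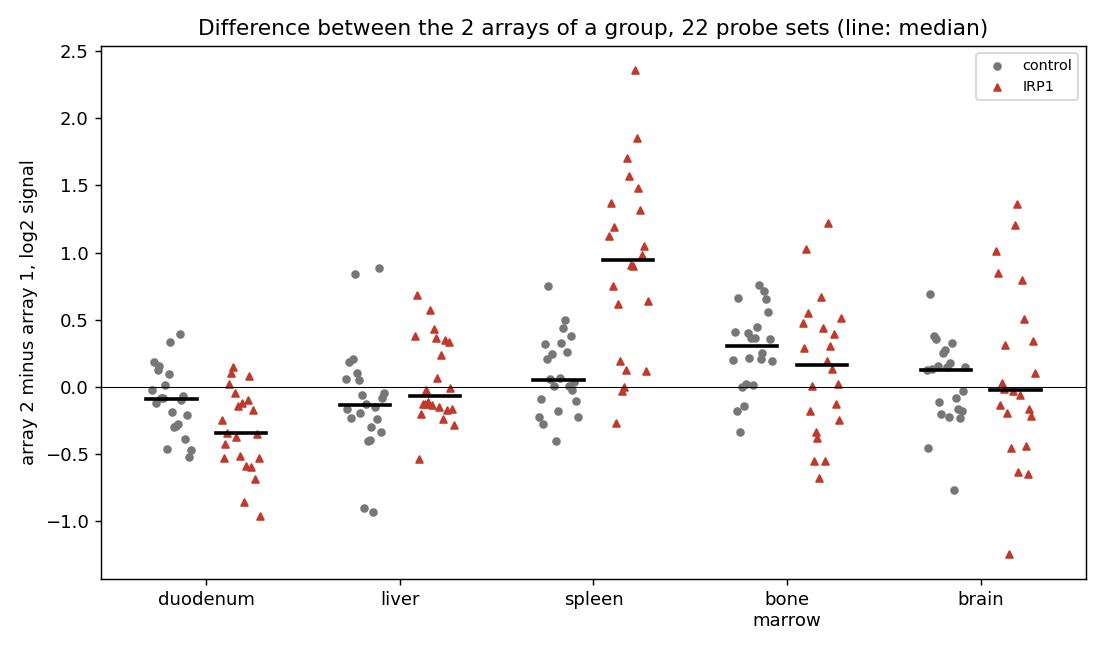
Second minus first array of a group (y axis, log2 units) for the 22 probe sets in each tissue, with controls in grey, IRP1 in red and lines at the medians. The spleen IRP1 pairs stand highest, with a median of 0.94, and those of duodenum have a median of -0.34.

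The signal of these genes, averaged over both reactions, differed between tissues for 18 of the 22 probe sets by the F-test (limma, adjusted p under 0.05), against 77.7% of all probe sets, so the share is near the background. The 9 leading probe sets were all among them, and the 4 that did not pass were dim Ralgapa1 probe sets. In pooled tissue RNA, fewer cells of a type and less RNA per cell cannot be told apart. Each level below is compared with the mean of the other 4 tissues. It averages in the IRP1 arrays, so a large IRP1 difference in a tissue, as often in bone marrow, raises that tissue's level. A small IRP1 difference, as often in liver, lowers a tissue's level against the others. The control reactions alone are described in the next paragraph. Eps8 1422823_at had the widest contrast, 3.97 higher in duodenum (SE 0.18, adjusted p = 1.23e-11 by limma), -2.53 in liver and -1.38 in bone marrow. Trp53inp2 1452646_at was lower in spleen, by -2.46 (adjusted p = 9.25e-10 by limma), and higher in duodenum by 1.26 and in liver by 1.11. Pacs1 stood at -1.55 in duodenum and -1.73 in liver, against 1.56 in bone marrow. Gyg 1448429_at and Cdk9 1417269_at shared the liver and bone marrow part of that form, at -1.44 and -1.19 in liver and 1.50 and 1.28 in bone marrow. In duodenum they stood at -0.73, which was not called, and -0.64, which was called. In brain Pacs1 stood at 0.75, against -0.23 for Gyg and -0.36 for Cdk9. Ssbp3 1427917_s_at was higher in bone marrow by 1.04 and in brain by 1.02. Hmces stood at 0.77 in spleen and -0.73 in duodenum, and Mpv17l2 at 0.63 in bone marrow and -0.46 in brain. Several of the 22 probe sets share a gene, so the counts that follow are not of independent genes. Over the 22 probe sets, 14 were lower in liver and 2 higher, against 30.1% and 26.9% of all probe sets. In bone marrow 10 were higher and 4 lower, against 22.1% and 23.9%. In spleen 7 were higher and 4 lower, against 22.8% and 22.2%. In duodenum 4 were higher and 7 lower, against 20% and 26.5%, and in brain 5 and 3, against 22.3% and 33.3%.

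In the control reactions alone, with no IRP1 added, the order of tissues differed between the genes. Gyg, Cdk9 and Pacs1 ran from liver through duodenum, brain and spleen to bone marrow, and their spleen and bone marrow arrays overlapped. Liver and duodenum arrays of Pacs1 overlapped as well. Ssbp3 ran from duodenum through liver, spleen and bone marrow to brain, the last pair overlapping. Hmces ran from duodenum through liver, brain and bone marrow to spleen, and Eps8 from liver through bone marrow, spleen and brain to duodenum, with no neighbours overlapping. Trp53inp2 ran from spleen through bone marrow and brain to duodenum and liver, which overlapped. Eps8 spanned 5.29 log2 units between tissues and Mpv17l2 0.54. Mpv17l2 had 3 overlapping pairs of neighbours in its order from brain through spleen, liver and bone marrow to duodenum. Ralgapa1 1458410_at spanned 0.61, from brain through duodenum, bone marrow and liver to spleen, and duodenum with bone marrow and bone marrow with liver overlapped.

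Probe sets of other genes with the most similar pattern over the 10 group means were listed as a description, since the means share tissues and reactions. They are the highest correlations among all probe sets with 1 symbol, and so wide a search over 10 means can return high values. The pattern also holds the IRP1 difference by which the genes were chosen, so likeness to a known target does not show shared binding. Gyg and Cdk9 were closest to each other, with a Pearson correlation of 0.980 across the 10 means. Pacs1 was closest to Zmynd19 (0.980), and Gyg also stood among its nearest (0.932). Ssbp3 was closest to Lrpap1 (0.969) and Zfp771 (0.947), Ralgapa1 to Cep95 (0.959) and Srsf10 (0.947), and Hmces to Lztfl1 (0.959) and Cep95 (0.956). Trp53inp2 was closest to Slc1a1 (0.945), Eps8 to Lrrc57 (0.957) and Mpv17l2 to a Tfrc probe set, 1422966_a_at (0.954).

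Other genes of the same pathways were read from 9 lists, with 121 of 128 listed genes measured by 269 probe sets. In the mean of tissues, 1 of 269 was higher with IRP1 (0.372%), against 0.773% of all probe sets, and 4 were lower (1.49%), against 1.03%. At an unadjusted p under 0.05 there were 55 of 269, against 16.4% of all. The 4 lower calls became 1 with a replicate block, and leaving out 1 array gave 0 to 10 lower, 10 without the second IRP1 array of brain. The differences ran from -0.57 to 0.41, with a median of -0.04. The Ral GTPase genes, 19 probe sets, had 1 lower, Rala 1423137_at at -0.57 (SE 0.12, adjusted p = 0.0244 by limma), 1 of the GTPases that the Ralgapa1 complex turns off. The other Rala probe sets stood at 0.05 (1450870_at) and 0.11 (1456049_at) and were not called. The cargo-sorting genes around Pacs1, 31 probe sets, had 1 higher and 1 lower. Gga1 1459863_x_at, a trans-Golgi adaptor, stood at 0.41 (SE 0.10, adjusted p = 0.0476 by limma), and its x_at type marks probes that may cross-hybridize. A brighter Gga1 probe set, 1423834_s_at, stood at -0.32 and was not called (adjusted p = 0.192 by limma). Ap3b1 1450915_at, for a subunit of the AP-3 adaptor, fell by 0.41 (adjusted p = 0.0414 by limma), and 1423235_at stood at -0.20 and was not called. The P-TEFb and elongation genes, 43 probe sets, had 1 lower, Nelfcd of the pausing factor NELF, at -0.40 (adjusted p = 0.0439 by limma). The glycogen genes, 40 probe sets, had 1 lower, Gsk3b 1439949_at, for the kinase that inhibits glycogen synthase, at -0.32 (adjusted p = 0.0461 by limma). The other Gsk3b probe sets stood between -0.26 and 0.07 and were not called. Limma called 0 of 22 probe sets of the SSBP and LDB genes (4 at an unadjusted p under 0.05), 0 of 40 of the autophagy genes (5 unadjusted) and 0 of 36 of the EPS8 genes (5 unadjusted). It also called 0 of 34 of the base excision genes (5 unadjusted) and 0 of 4 of the MPV17 family (0 unadjusted). In the lists with calls, the unadjusted counts were 12 of 31 for cargo sorting and 11 of 43 for P-TEFb and elongation. They were 5 of 19 for the Ral GTPase genes and 8 of 40 for the glycogen genes. None of these 269 probe sets reached 2-fold in either direction. Without the 3 arrays with low hybridization controls, 0 of the 269 were higher and 0 were lower at the threshold.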

How the data were processed

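RNA recovered by IRP1 immunoprecipitation and by control reactions from 5 tissues was measured on 20 arrays, 2 per group. The authors deposited 1 log2 signal for each probe set and array. The series design text names RMA, or MAS5 in GCOS followed by quantile normalization, and does not state which made the table. No counts lie behind array signals, and the number of arrays limits the precision.

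The 64 Affymetrix control probe sets were left out and 45037 were tested, with no filter. One model with 10 groups was fitted with limma 3.58.1 (lmFit, eBayes) in R 4.3.3, with 10 residual degrees of freedom, and p-values were adjusted by Benjamini-Hochberg over all 45037 probe sets. The tests were two-sided and were tried on simulated data first. A gene was named by probe set annotation with 1 symbol (34945 probe sets).

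The genes and the related lists were chosen with earlier results of these data known. Named were all probe sets of the 9 genes, the 3 most similar probe sets of other genes for each leading probe set, of which the text gives some, and up to 4 called probe sets per related list. Alternatives were quantile normalization, median centring, a floor of 6, a filter on group means under 6, a replicate block, array weights, a variance trend with a robust prior, leaving out 3 arrays with low hybridization controls, and leaving out each array. Sequence windows are RefSeq's for GRCm38.p6.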

Additional observations from a re-analysis of the deposited data

How the results depend on the processing

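The mean difference of 20 of the 22 probe sets kept its sign under every alternative run, which follows in part from the choice. The mean differences of the dim Ralgapa1 probe sets 1431097_at and 1446684_at, near 0 in the deposited values, changed sign under some. The floor of 6 moved 4 mean differences by more than the spread between replicates, to 0.97 for Ralgapa1 1458410_at, 0.47 for Ralgapa1 1421448_at, 0.51 for Trp53inp2 1444396_at and 0.23 for Eps8 1425733_a_at. Under the floor and the filter 17 of the 22 probe sets remained. The count of the 22 whose IRP1 effect differed between tissues was 1 with the floor and 0 in the other alternatives. That 1 was Ralgapa1 1458410_at, whose control arrays the floor all set to 6. The count whose signal differed was 15 to 19 against 18. Under the floor the level tests of Ralgapa1 1421448_at (adjusted p = 0.252 by limma) and Ssbp3 1425940_a_at (adjusted p = 0.0540 by limma) missed the threshold.

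Of the 269 related probe sets, 1 was called higher. That count was 4 with quantile normalization and 0 with the floor, the filter, array weights and without the 3 arrays with low hybridization controls. The 4 called lower became 1 with the replicate block, 0 without those 3 arrays and 2 with the variance trend. Leaving out each array in turn gave 0 to 1 higher and 0 to 10 lower, 10 without the second IRP1 array of brain, so the related calls depend on single arrays. The 5 named related calls were lost in 78 of 138 alternative fits, and none reversed. The cause was not tested.

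Replicate numbers are shared between the reactions of a tissue. Deviations of same-numbered arrays correlated at 0.27 in duodenum, -0.07 in liver, 0.53 in spleen, -0.04 in bone marrow and 0.12 in brain. These values do not settle whether same-numbered arrays were prepared together, and the main fit had no replicate block. With the replicate block 402 of all probe sets were higher and 551 lower, against 348 and 464, and 0 of the 22 passed the F-test. Dim probe sets limit what can be read, since signals near the array's lowest values can compress differences. Whether they did so here was not tested. Tfrc 1422967_a_at, with control arrays of 3.70 to 4.29, differed by 1.98 in the mean of tissues.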
